A study of Mus musculus with 8 samples.

Results

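The Sbno2 locus carried 10 distinct sites of phosphorylated STAT3 in the peak lists, of 5343 sites listed in the whole study. A member was any peak of the 6 lists that overlapped 79.5 to 79.64 Mb on chromosome 10 of mm9, a 140 kb window that covers Sbno2 and its flanks. The window was chosen by the listed peak positions themselves, as a cluster. Site number, position and list membership are therefore given as descriptions, with no test.

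Chromatin immunoprecipitation followed by sequencing was applied to mouse embryonic fibroblasts with an antibody to STAT3 phosphorylated at Tyr-705. All groups shared a STAT3-/- background and re-expressed either STAT3α, the full-length factor, or STAT3β, which lacks the C-terminal transactivation domain. In every group 1 nM 4-hydroxytamoxifen induced the construct for at least 48 h, puromycin maintained selection and serum was withdrawn for 16 h. Human oncostatin M (OSM, 10 ng/mL) was then given for 0, 30 or 180 min. This gave 1 peak list for STAT3α and 1 for STAT3β at each time, 6 lists from 8 samples, and the 2 input DNA samples are not used here. Each list came from merged reads, so no value has an error between cultures, and spliceform and cell line cannot be told apart. The lists hold positions only, with no height or read number. The depth is unknown, and absence from a list does not show that a site was unbound. The lists held 3725 (STAT3α) and 3891 (STAT3β) peaks at 30 min, and 9 to 120 peaks at the other times.

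OSM is an interleukin-6 family cytokine whose receptor shares gp130 and activates JAK kinases. These phosphorylate STAT3, which dimerises, enters the nucleus and binds palindromic elements of the form TTCNNNGAA. Sbno2, strawberry notch homolog 2, encodes a helicase-family transcriptional coregulator. It is known as a STAT3-dependent gene induced by interleukin-10 in macrophages, where it takes part in repression of NF-κB targets, and by interleukin-6 family cytokines in other cells.

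No sequence of the build of the peaks was used, so the bases under the 10 sites are not shown. To show what STAT3-type motif letters the gene's annotated promoters hold, the RefSeq promoter windows of Sbno2 were searched on GRCm38.p6 for TTCNNNGAA and its stricter form TTCCNGGAA, which every match to the second also satisfies. Both motifs read the same on either strand. Of 3 annotated Sbno2 starts, 2 held a TTCNNNGAA within the 250 bases before the start and 1 held a TTCCNGGAA. The 250 bases before those 2 starts are given 5′ to 3′ on the minus strand, with the match in capitals, at chr10:80102703-80102952 for start 1 and chr10:80101188-80101437 for start 2 (GRCm38.p6).
Sbno2 start 1: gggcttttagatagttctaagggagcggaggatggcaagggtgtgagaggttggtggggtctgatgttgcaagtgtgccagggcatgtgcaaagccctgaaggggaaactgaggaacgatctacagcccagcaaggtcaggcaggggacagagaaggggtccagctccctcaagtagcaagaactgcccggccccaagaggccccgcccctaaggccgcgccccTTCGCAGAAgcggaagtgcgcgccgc
Sbno2 start 2: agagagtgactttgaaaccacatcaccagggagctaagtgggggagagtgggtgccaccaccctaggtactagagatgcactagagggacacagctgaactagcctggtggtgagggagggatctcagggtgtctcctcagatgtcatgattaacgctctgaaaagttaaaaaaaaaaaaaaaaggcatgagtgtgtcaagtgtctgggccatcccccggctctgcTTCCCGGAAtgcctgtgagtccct
The match of start 1, TTCGCAGAA, lay 26 to 18 bases before the start. The match of start 2, TTCCCGGAA, lay 24 to 16 bases before it. Of 32851 promoter windows, 7.02% held a TTCNNNGAA and 0.913% a TTCCNGGAA in the 250 bases before the start. Counted with the 50 bases after the start, these shares were 8.3% and 1.15%. A match is a description of letters. These positions belong to another build than the peaks, so no site could be set on or off either promoter.

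The same search covered the 5 genes on each side of Sbno2 in the RefSeq gene order. On one side these were Gpx4, a peroxidase that limits lipid peroxidation, Polr2e, a subunit of RNA polymerases, Arhgap45, Abca7, a lipid transporter, and Cnn2, a calponin. On the other were Stk11, the kinase LKB1 that acts on AMPK, Cbarp, Atp5d, a subunit of ATP synthase, Midn and Cirbp, a cold-inducible RNA-binding protein. All 11 genes, Sbno2 included, had a promoter window, 22 in all. TTCNNNGAA was in 5 of the 22 windows: 2 of Sbno2, 1 of Arhgap45 (TTCTCTGAA, 233 to 225 bases before the start) and 2 overlapping ones of Atp5d that share the match TTCCCAGAA. TTCCNGGAA was in 1 window, that of Sbno2 start 2. The sites could not be assigned among these genes, or to exons or introns, because no mm9 annotation was used.

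Before OSM neither list had a peak in the window, and 0.206% of all distinct sites had an exact position in such an unstimulated list. At 30 min the window held 6 STAT3α peaks, 0.161% of that list (95% exact Clopper-Pearson interval 0.0591 to 0.350%). It held 9 STAT3β peaks, 0.231% of that list (0.106 to 0.439%). At 180 min no STAT3α peak and 1 STAT3β peak remained listed. The intervals here and below cover counting over sites only, and neighbouring sites are not independent. All 10 sites were 400 bp wide. The nearest sites outside the window and the STAT3β 180 min peaks of chromosome 10 had the same width. The width is thus not particular to the locus and is not read as the extent of binding.

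**Figure D1:**
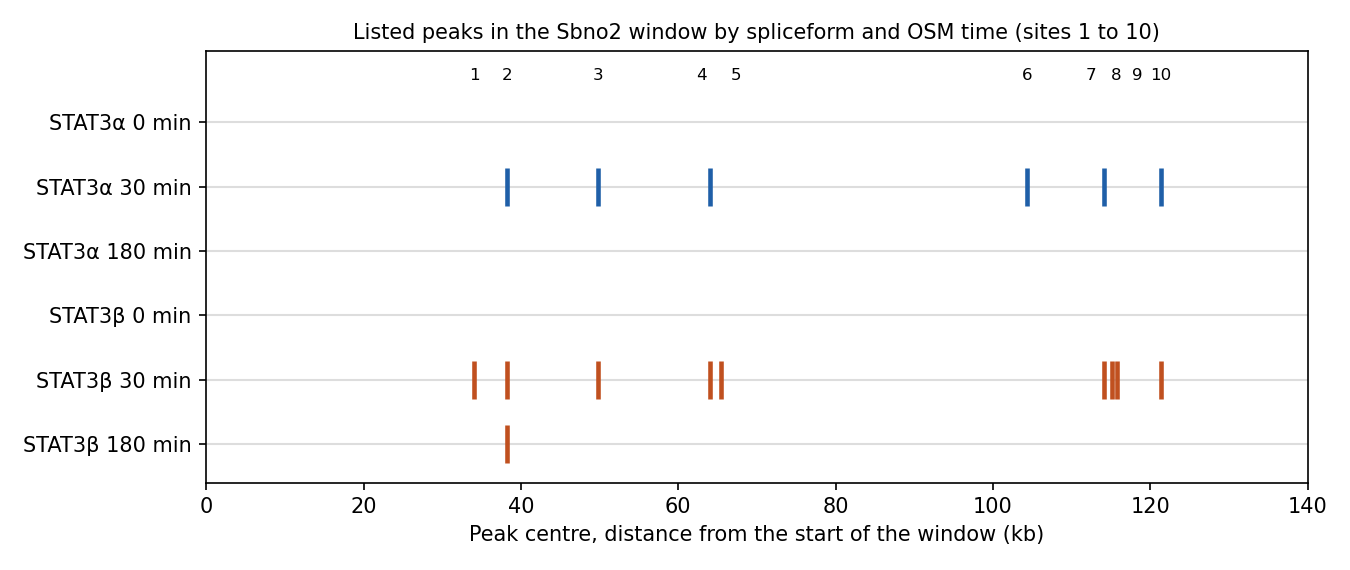
Listed peaks in the Sbno2 window, 1 row per list, against distance of the peak centre from the start of the window in kb (blue, STAT3α; orange, STAT3β). Numbers 1 to 10 name the sites, and peaks appear in 3 lists, the 30 min list of each spliceform and the 180 min list of STAT3β.

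The 10 sites spanned 87.7 kb and fell into 2 groups of 5, separated by 38.9 kb between the centres of sites 5 and 6. The first group spanned 31.7 kb and held sites 1 to 5. Site 1 lay at 79533900 to 79534299 and was in the STAT3β 30 min list alone. Site 2, at 79538039 to 79538438, was listed for both spliceforms at 30 min and for STAT3β again at 180 min. It was the member found in most lists, 3 of 6.

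Site 3, at 79549549 to 79549948, and site 4, at 79563800 to 79564199, were in both 30 min lists and in no other list. Site 5, at 79565211 to 79565610, was in the STAT3β 30 min list alone and lay 1.41 kb from site 4, centre to centre. The first group thus held 3 sites of both spliceforms, 2 of STAT3β alone and none of STAT3α alone.

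The second group spanned 17.5 kb. Site 6, at 79604077 to 79604476, was in the STAT3α 30 min list and in no other, and it was the only such member. Site 7, at 79613888 to 79614287, was in both 30 min lists. Sites 8 and 9, at 79614894 to 79615293 and 79615631 to 79616030, followed within 2 kb and were in the STAT3β 30 min list alone. Site 10, at 79621185 to 79621584, was in both 30 min lists. This group held 2 sites of both spliceforms, 1 of STAT3α alone and 2 of STAT3β alone.

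Sites just outside the window show where its edges fell. The nearest one before it, at 79496786 to 79497185, ended 2.81 kb short of the window, was in both 30 min lists and lay 37.1 kb from site 1. The next, at 79481503 to 79481902, was in the STAT3α 30 min list alone. After the window no site was listed for 256 kb, until one at 79896443 to 79896842 that was in both 30 min lists. The cluster was thus open on the side of site 1 and isolated on the side of site 10.

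The spliceforms were compared at 30 min. Of the 10 sites, 5 were in both lists (50%, exact interval 18.7 to 81.3%), against 42.7% of the 5338 sites listed at 30 min. The STAT3α list alone held 1 (10%, 0.253 to 44.5%), against 27.1%, and the STAT3β list alone held 4 (40%, 12.2 to 73.8%), against 30.2%. Each interval at the locus includes the share over all sites, so no difference from the rest was detectable with 10 sites. Put as shares of each list, 5 of the 6 STAT3α sites were also STAT3β sites (83.3%, 35.9 to 99.6%; all sites, 61.2%). Of the 9 STAT3β sites, 5 were also STAT3α sites (55.6%, 21.2 to 86.3%; all sites, 58.5%).

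Of the 5 single-list sites, 4 were STAT3β sites. Over all sites the STAT3β list held 52.7% of single-list sites. On the rest of chromosome 10 it held 70.2%, 106 against 45, so single-list sites of STAT3β were in the majority there too. In other windows of this length with 6 or more sites it held 43 of 93 (46.2%, 35.8 to 56.9%), against 80% at the locus (28.4 to 99.5%).

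**Figure D2:**
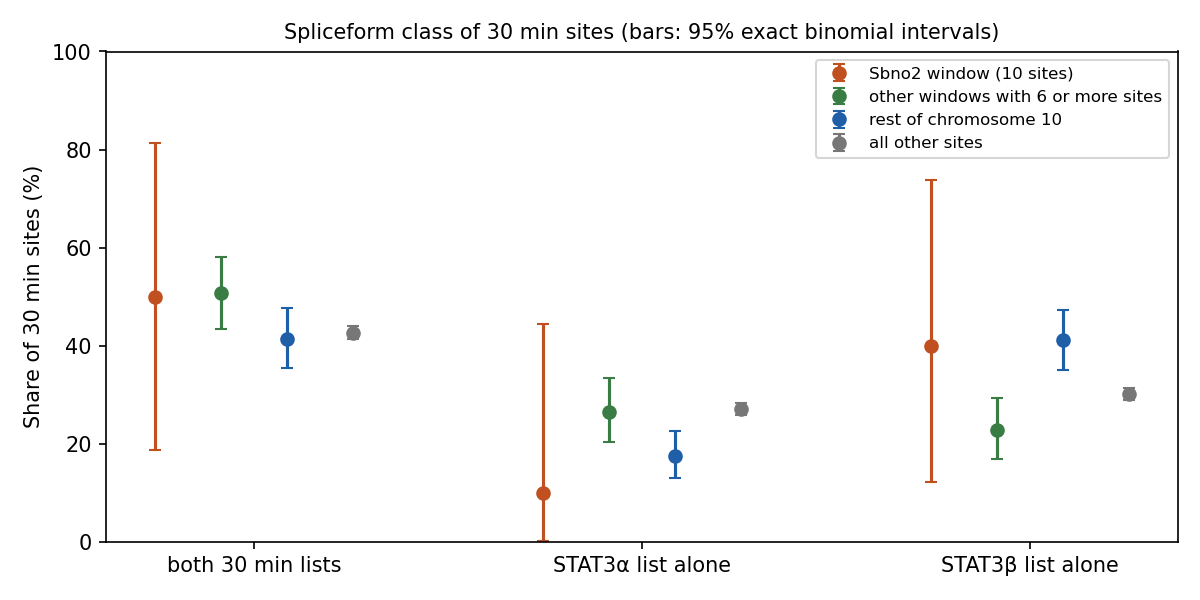
Share of 30 min sites (%) listed for both spliceforms, for STAT3α alone and for STAT3β alone, in the Sbno2 window, other windows with 6 or more sites, the rest of chromosome 10 and all other sites. Points are shares and bars 95% exact binomial intervals, and those of the 10 sites at the locus include the share of all other sites in each class.

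The single-list STAT3β sites lay beside shared ones. All 4 had a site of both spliceforms within 5 kb, at 4139 bp for site 1, 1411 bp for site 5, 1006 bp for site 8 and 1743 bp for site 9. Over all 1613 STAT3β-only sites, 6.94% had a shared site within 5 kb. The locus was picked as dense, so this closeness is no independent finding. In the other windows of this length with 6 or more sites, 15 of 43 STAT3β-only sites (34.9%, 21.0 to 50.9%) had a shared site within 5 kb. The STAT3α-only site 6 lay 9811 bp from site 7, the nearest shared site, and 10.4% of all STAT3α-only sites had one within 10 kb. At the distances used for STAT3β, 6.29% of all STAT3α-only sites had a shared site within 5 kb and 2.83% within 2 kb. In the other windows with 6 or more sites, 11 of 50 STAT3α-only sites (22%, 11.5 to 36.0%) had one within 5 kb and 6 of 50 (12%) within 2 kb. Of the 4 STAT3β-only members, 3 were within 2 kb of a shared site, against 4.03% of all STAT3β-only sites and 8 of 43 (18.6%, 8.39 to 33.4%) in those dense windows. Chromatin had been sheared to 200 to 500 bp, per the labels. When peaks within 2 kb were joined, the locus had 7 sites, of which the STAT3α and the STAT3β list each held 6.

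At 180 min the STAT3β list kept 1 of its 9 locus sites, site 2 (11.1%, 0.281 to 48.2%), against 3.03% of all STAT3β 30 min sites. Among sites shared at 30 min this was 1 of 5, against 4.92% overall. The STAT3α list kept 0 of 6 (upper exact limit 45.9%), against 0.94% of all STAT3α 30 min sites, and 0 of the 5 shared ones, against 1.54%. With so few sites neither share could be told from its background. On chromosome 10 as a whole, the STAT3α 180 min list of 40 peaks had none and the STAT3β list of 120 had 8. At 30 min the chromosome held 158 of 3725 STAT3α peaks and 222 of 3891 STAT3β peaks. The 180 min lists differed in length, 40 against 120 peaks, and a difference between spliceforms on this chromosome was not tested.

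The pattern of site 2, both 30 min lists and then STAT3β alone at 180 min, was found at 85 of all 5343 sites (1.59%). Of the 8 STAT3β peaks of chromosome 10 at 180 min, site 2 was the only one at the locus. The nearest others lay 1483 kb before it and 854 kb after it, outside the cluster. The 9 other members were in no list after 30 min.

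The locus was among the densest in the study. Chromosomes were divided into windows of 140 kb on a grid that includes the locus, and 3462 windows held a site, with a median of 1. A single window held more sites than the 10 of the Sbno2 window, 12 at 117720000 to 117860000 on chromosome 11. The next were 4 windows of 9 sites. Of these, chromosome 11 had one at 51640000 to 51780000, and chromosome 17 one at 35820000 to 35960000. The window of chromosome 2 ran from 167560000 to 167700000 and that of chromosome 5 from 107500000 to 107640000. By the STAT3β 30 min list alone no window held more than the 9 peaks at the locus, and 3 windows, the locus included, held 9. By the STAT3α 30 min list alone 5 windows held more than its 6 peaks. The locus window was placed around its cluster and the grid windows were not, which favours the locus. With windows that each start at a site, 1 window still held more sites than the one around the locus. The latter held 11, and 3 windows, this one included, did so. It began at the outside site at 79481503, also counted the one at 79496786 and left out site 10. Its 11 is thus not a count of the 10 sites at the locus.

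**Figure D3:**
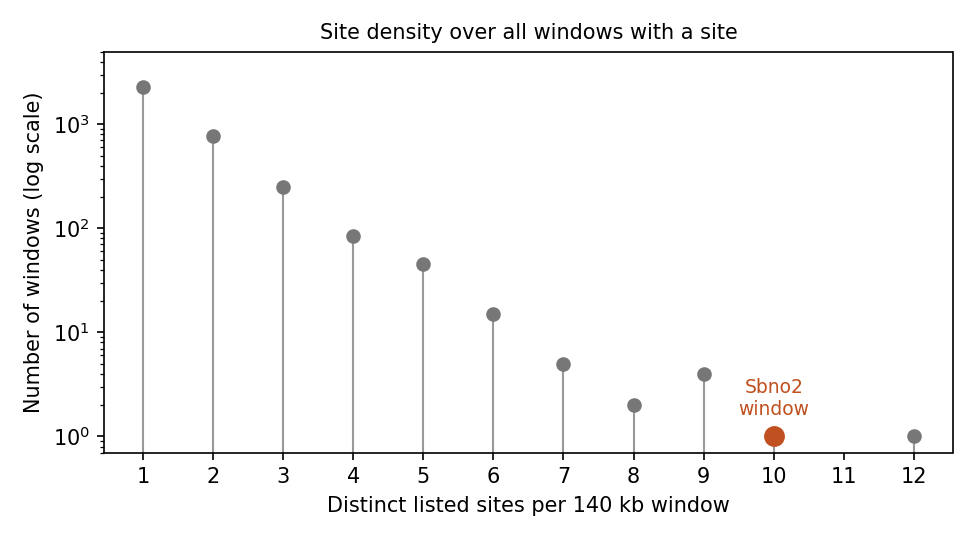
Number of 140 kb windows (log axis) by the number of distinct listed sites in them, over the 3462 windows with a site. The Sbno2 window, in orange, held 10 sites, and 1 window held more (12).

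The composition of the locus was set beside that of the densest windows. The chromosome 11 window with 12 sites had 8 in both 30 min lists, 3 for STAT3α alone and 1 for STAT3β alone. At 180 min it held 2 STAT3β peaks and 1 STAT3α peak. The other chromosome 11 window had 7 sites in both lists, 2 for STAT3α alone and none for STAT3β alone. The chromosome 17 window had 4 in both, 4 for STAT3α alone and 1 for STAT3β alone. The chromosome 2 window had 7 in both, none for STAT3α alone and 2 for STAT3β alone, and the chromosome 5 window had 3 of each class. Of these 4 windows, that of chromosome 2 held 180 min peaks, 1 of each spliceform, and the others held none.

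Across the 27 other windows with 6 or more sites, a limit set after the lists were seen, 96 of 189 sites were in both 30 min lists (50.8%, 43.4 to 58.1%), close to 50% at the locus. STAT3β alone had 22.8% of them (17.0 to 29.4%), against 40% at the locus, whose interval is wide enough to include that value. On the rest of chromosome 10, STAT3β alone had 106 of 258 sites (41.1%, 35.0 to 47.4%), close to the share at the locus. STAT3α alone had 17.4% there. The share of STAT3β-only sites was above that of the locus in 6 of the 27 windows, and STAT3β-only sites outnumbered STAT3α-only ones in 8. The highest number was 5, at 91120000 to 91260000 on chromosome 5. A STAT3β peak at 180 min was present in 7 of the 27 windows and a STAT3α peak in 6.

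Neighbouring sites at the locus had a median centre distance of 5.55 kb (9 distances, 0.737 to 38.9 kb), against 122 kb over all sites. The choice of a cluster fixed this direction. In the 27 other windows with 6 or more sites the median over 162 distances was 8.83 kb, window medians ran from 1.26 to 29.6 kb, and 5 were below that of the locus. In the STAT3α 30 min list the median at the locus was 11.5 kb (5 distances, 7.3 to 40.3 kb), against 179 kb over that list. In the STAT3β 30 min list it was 4.85 kb (8 distances, 0.737 to 48.7 kb), against 189 kb.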

How the data were processed

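The authors deposited 1 peak list per ChIP sample, with chromosome, start, end and name, on mm9 per the submitters' processing notes. These notes also list MACS2 2.1.1.20160309, HOMER 4.9, STAR 2.5.0a, Trim Galore 0.4.2 and bedtools, with no role. The peak threshold and the part of input DNA in peak calling were not given in the sources used here. Reads of a sample were merged, per the labels.

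Positions were counted from 1. The 6 peaks of the 0 min lists with positions rounded to 3 digits, none on chromosome 10, were left out. Peaks of different lists with identical coordinates made 1 site. A peak was a member at an overlap of 1 bp or more with the window. All members are named. The rule for other windows was the 3 fullest on the grid, but 4 tied at 9 sites after the first, and all of these are named. The members, lists and comparisons were chosen with earlier results of these data known. No test was run. Shares have 95% exact (Clopper-Pearson) intervals. Counting functions were tested on simulated data. Promoter sequences and gene order came from RefSeq (GRCm38.p6), and its coordinates were never set against those of the peaks. Python 3.11.15, scipy 1.17.1 and matplotlib 3.10.9 were used.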

Additional observations from a re-analysis of the deposited data

How the results depend on the processing

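Of 36 alternative values for 8 results, 32 stayed within or at the set limits (1.5 times for a count, rank or distance, the exact interval for a share). The alternatives changed the window edges, the overlap, the distance that joins peaks, the grid and the lists counted. The number of sites ran from 7 to 12 over them. The 180 min counts of 0 and 1 did not move, but no setting used could move them. Chromosome 10 had no STAT3α peak at 180 min. The window was widened by 50 kb at most, and the nearest other STAT3β peaks at 180 min lay 854 and 1483 kb from site 2. These counts are among the 32 values that stayed. The limit for the share, 18.7 to 81.3%, was also wide. The rank of the locus by site number, 2, became 1 with the STAT3β 30 min list alone and 6 with the STAT3α 30 min list alone. It also became 1 with the grid shifted by 70 kb. There the locus kept its own window and its 10 sites while the other windows moved, which favours the locus. A shifted grid window would have divided its sites. The median distance between neighbours, 5554 bp, became 11510 bp with the STAT3α 30 min list alone, where fewer sites were counted. Joining peaks within 2 kb took the STAT3β 30 min count from 9 to 6, at the limit itself, while the STAT3α count stayed at 6. The share of sites in both spliceforms then rose from 50 to 71.4%. Windows that start at sites were added after seeing the data and left the rank at 2. No paired analysis was possible because each group has 1 merged list. For the same reason no list could be left out within a group. The lists give no depth, so a site missing from a list cannot be told from one below its threshold.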
